A study of Saccharomyces cerevisiae with 10 samples.

Results

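The genes described here build and guard the cell wall of Saccharomyces cerevisiae. There were 34 of them, chosen by gene symbol: 4 wall integrity sensors, 8 genes of the Rho1 and kinase cascade, 5 of glucan and chitin synthesis, 6 wall remodelling enzymes, 4 PIR proteins and 7 GPI-linked wall proteins. Each of the 34 matched exactly 1 probe set, out of 5498 probe sets that name a single S. cerevisiae gene and 10715 on the array. The yeast was grown at 26 °C in selective medium to mid log phase, and its RNA was read out on single-colour arrays. In 3 cultures it carried prs426GPD-αENaC-HA, a plasmid that expresses the HA-tagged α subunit of the epithelial sodium channel from the GPD promoter, a strong constitutive promoter. The 7 controls carried the vector pRSGPD426. The host strain is not named in the labels. No probe set for the channel was used here, so a label cannot be tested by its transcript.

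The yeast wall is a glucan and chitin scaffold covered with mannoproteins. Some of these proteins hang on a remnant of a GPI anchor, and the PIR proteins are bound directly to glucan. Sensors in the plasma membrane report strain in the wall to the exchange factor Rom2, which loads Rho1. Rho1 activates glucan synthase and protein kinase Pkc1, which signals through the kinase Bck1 and the paired kinases Mkk1 and Mkk2 to the MAP kinase Slt2. Slt2 activates the transcription factor Rlm1, whose targets include many wall protein genes.

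A level below is log2(value + 0.03), with the value in units of the array's mean signal and the arrays quantile normalized. Differences are αENaC minus control on that scale, with SE, and n is 3 and 7 arrays. By the running numbers in the titles the arrays form 3 sets. Set 1 (titles 1 to 4) is αENaC 1, αENaC 2, control 1 and control 2, set 2 (titles 5 and 6) is αENaC 3 beside control 3, and set 3 (titles 11 to 14) is the remaining 4 controls. Set 3 holds no αENaC array. A difference over all 10 arrays therefore mixes αENaC with any difference between sets. Arrays of the same set and group correlated at a median of 0.997 across probe sets, against 0.959 for arrays of the same group in different sets, so arrays of a set may not be fully independent, and a p-value covers only the array-to-array spread, some of which may be technical. All 34 members lay above the background level of −2.03 on all 10 arrays. The number of arrays limits the precision.

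No wall gene of the 34 was called higher or lower with αENaC. None of the 34 passed limma's test at an adjusted p of 0.05, while 1.73% of all 5498 probe sets did. At an unadjusted p under 0.05 there were 4 higher and 2 lower members. Of all 5498 probe sets, 563 were higher and 435 lower at that mark, 18.2% in either direction. The median difference was 0.020, beside 0.019 over all 5449 genes, with 26 members positive and 8 negative. Of all 5449 genes, 2940 were positive and 2509 negative. With arrays centred on their median instead of quantile normalized, 8 members were positive and the members' median was −0.17, where the median of all probe sets was −0.06. The shift was uneven among the roles: all 6 remodelling genes and all 7 GPI genes were negative there, with medians of −0.32 and −0.50. The 99th percentile of the signal was 8.12 to 9.03 times the array mean in set 1, while sets 2 and 3 had 10.56 to 11.76. Its part in the shift was not tested.

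The 95% interval of the difference lay inside −0.5 to 0.5 for 23 of the 34 members, against 59.3% of all probe sets. It lay inside −1 to 1, or a 2-fold change either way, for 30, and for 92.9% of all probe sets. The 4 members whose interval reached past 1 were MKK2, SLT2, PIR3 and TIR1. The SE of a member's difference ran from 0.063 to 0.61 with a median of 0.10, against a median of 0.13 over all probe sets.

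**Figure D1:**
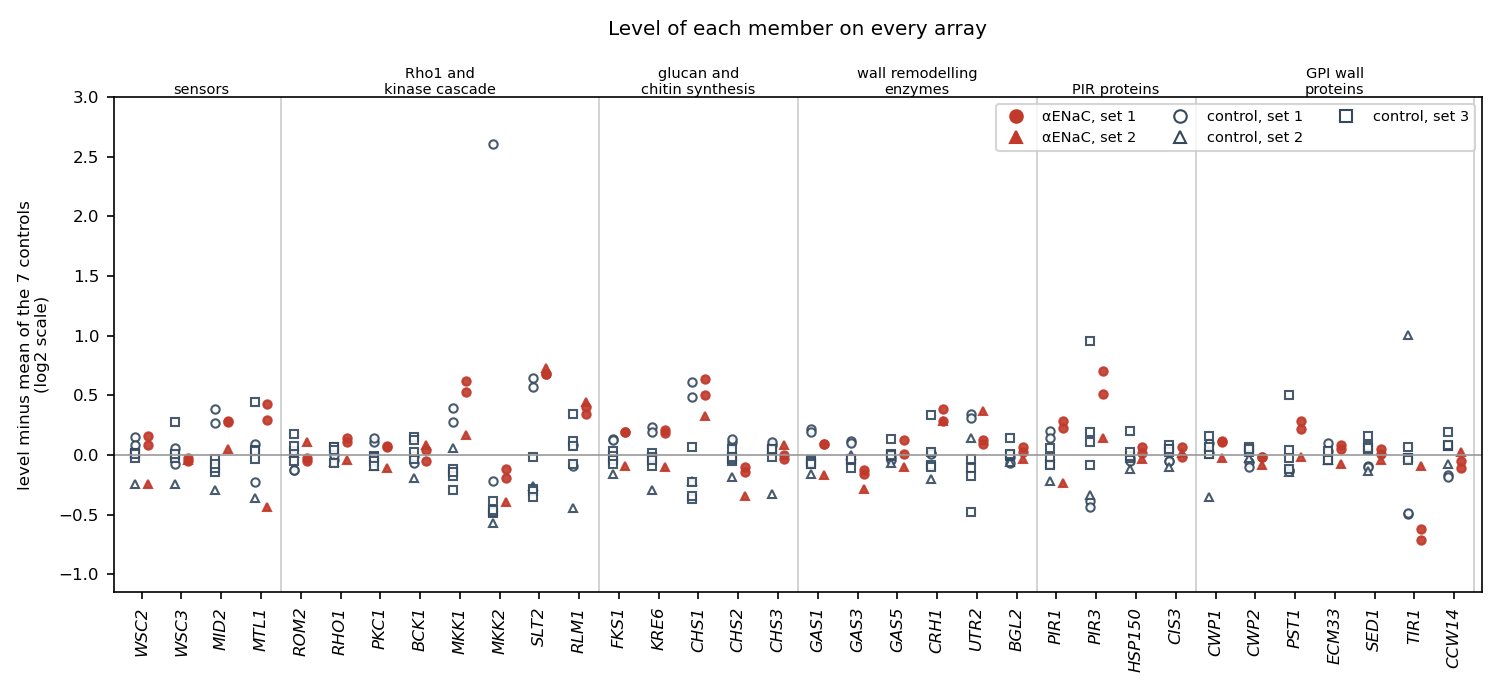
Level of each of the 34 members on every array, minus that member's mean over the 7 controls (log2 scale), ordered by role. Filled red symbols are αENaC arrays and open symbols controls, with circles, triangles and squares for title sets 1, 2 and 3. Most members sit within 0.5 of the control mean on all arrays, and the single point near 2.6 is MKK2 on control 2.

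The sensor genes showed no difference past the test. WSC2 and WSC3 encode stalk-like sensors of the plasma membrane. The difference of WSC2 was −0.00065 ± 0.11, with a 95% interval of 0.85- to 1.17-fold, and that of WSC3 was −0.039 ± 0.098. For MID2, a sensor of a second family, the level was 1.36, 1.37 and 1.14 on αENaC 1 to 3. On the controls MID2 was at 1.47 and 1.35 in set 1, 0.79 in control 3 and 0.94 to 1.05 in set 3. MID2 was thus high in both groups of set 1, while in set 2 αENaC 3 lay above control 3. The difference of MID2 was 0.21 ± 0.14 (adjusted p = 0.461), with −0.045 in set 1 and 0.34 in set 2. MTL1, the relative of MID2, ran from −0.87 to −0.0083 in αENaC and from −0.80 to 0.0029 in the controls, with a difference of 0.094 ± 0.20.

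In the kinase cascade, on the quantile-normalized scale, no difference passed the test. Those of ROM2, RHO1, PKC1 and BCK1 were near 0, and the largest were those of SLT2, MKK1 and RLM1. The difference was 0.010 ± 0.083 for ROM2, 0.067 ± 0.068 for RHO1, 0.0087 ± 0.079 for PKC1 and 0.027 ± 0.084 for BCK1. The interval of each of these 4 stayed within −0.17 to 0.22, but with median centring the difference of RHO1 was −0.31. BCK1, the first kinase below Pkc1, was at −1.11, −1.02 and −0.97 in αENaC, and between −1.25 and −0.91 with a median of −1.07 in the controls.

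SLT2, the MAP kinase at the end of the cascade, had the largest positive difference of the 34. Its level was 1.91, 1.91 and 1.96 on αENaC 1 to 3. On the controls it was 1.88 and 1.80 in set 1, 0.97 in control 3, 1.22 in control 4 and 0.88 to 0.95 in controls 5 to 7. So every αENaC array lay above every control, but the gap to the set 1 controls was small and that to the others wide. The difference was 0.69 ± 0.23, or 1.62-fold, and it did not pass (adjusted p = 0.154). In set 1 alone it was 0.070 and in set 2 alone 0.99.

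RLM1, the transcription factor under Slt2, was at 0.84, 0.89 and 0.94 in αENaC. The controls were at 0.57 and 0.40 in set 1, 0.044 in control 3, 0.84 in control 4 and 0.41 to 0.61 in controls 5 to 7. The αENaC arrays lay above all controls, but control 4 (0.835) was only just below αENaC 1 (0.838). The difference was 0.40 ± 0.14 (adjusted p = 0.176). Its set 1 value was 0.38 and its set 2 value 0.89. With the set as a fixed block in the fit, RLM1 was called higher at 0.55 ± 0.13 (adjusted p = 0.0305; from 0.0228 to 0.998 over 23 alternatives), a setting in which 14.2% of all probe sets were called. In that fit 1 member was called higher (7.38% of all probe sets) and 2 lower (CHS2 and GAS3, 6.86%), and with the set as a random block 2 higher (RLM1 and CRH1, 6.51% of all probe sets) and 2 lower (again CHS2 and GAS3, 4.71%), 11.2% in all. With the replicate number as a block none was called, nor was any probe set, while 20.5% had an unadjusted p under 0.05. Non-overlapping groups were seen for SLT2 and RLM1 on the higher side and GAS3 on the lower side, 3 of 34, against 8.58% of all probe sets (4.97% higher and 3.62% lower).

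MKK1 and MKK2 encode the paired MAP kinase kinases above Slt2. For MKK1 the level was 0.097, 0.0035 and −0.35 in αENaC. The set 1 controls were at −0.24 and −0.13, control 3 was at −0.47, and set 3 was at −0.81 to −0.64. Both groups were lower in the later sets, and the difference was 0.44 ± 0.16 (adjusted p = 0.189), with 0.23 and 0.11 within sets 1 and 2. MKK2 was at −0.93, −0.85 and −1.13 in αENaC and between −1.31 and −0.96 on 6 of the controls, but at 1.87 on control 2. With that array the difference of MKK2 was −0.23 ± 0.61. Without control 2 it was 0.20 (adjusted p = 0.256). MKK1 on control 2 was at −0.13, beside −0.24 on control 1.

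**Figure D2:**
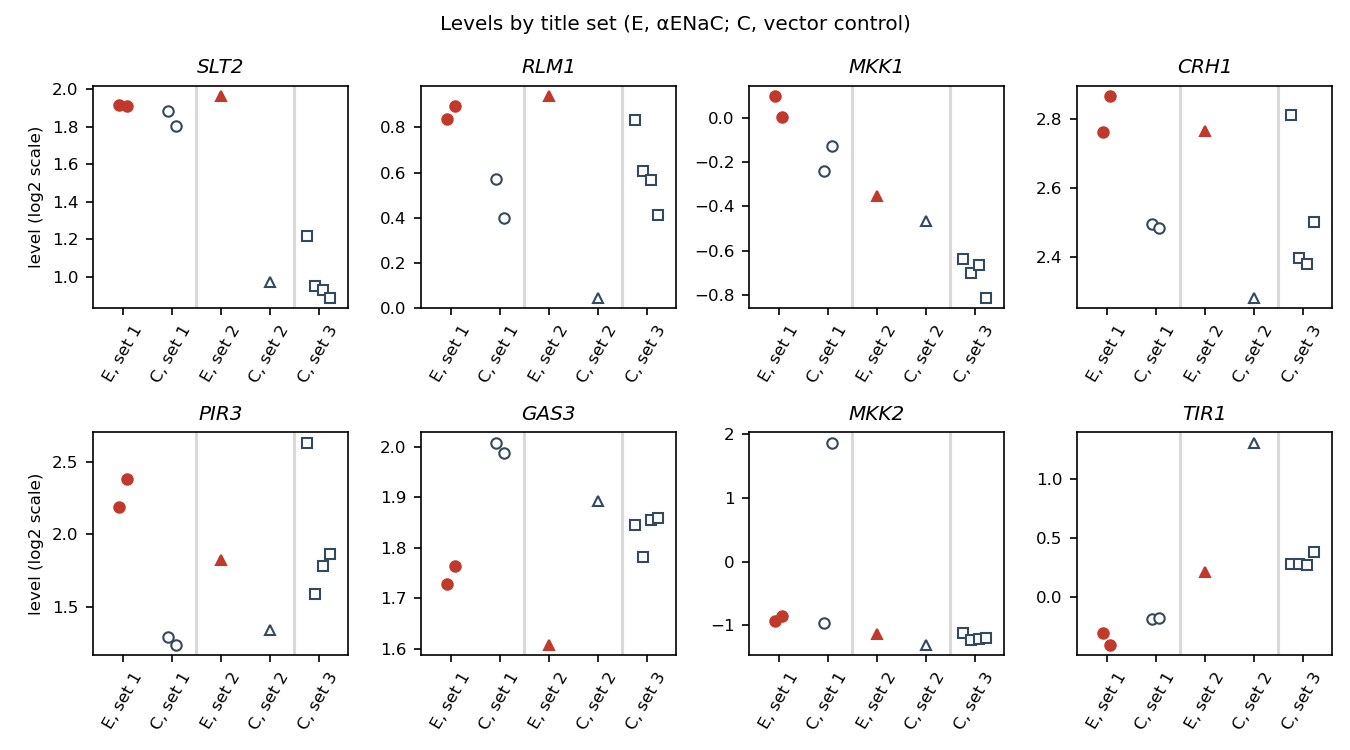
Level (log2 scale) of 8 members by title set and group, 1 point per array. Filled red symbols (E) are αENaC and open symbols (C) vector control. SLT2 is high in both groups of set 1 and splits in set 2, and GAS3 is lower in αENaC in both sets. PIR3 and CRH1 are higher in αENaC within both sets, while control 4 lies above the αENaC range in PIR3 and inside it in CRH1.

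Neither gene of glucan synthesis passed the test. FKS1, the main catalytic subunit of glucan synthase, was at 3.30, 3.30 and 3.02 in αENaC and from 2.94 to 3.24 in the controls. KRE6, which is needed for the branched glucan of the wall, ran from 1.94 to 2.24 in αENaC and from 1.74 to 2.27 in the controls. In both genes the arrays of set 2 were the lowest of their group. The difference was 0.099 ± 0.092 for FKS1 and 0.098 ± 0.12 for KRE6. That of FKS1 was −0.34 with median centring and −0.12 without quantile normalization.

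The differences of the chitin synthase genes were of both signs, none past the test. CHS1, for the repair enzyme of cell separation, was at 1.79, 1.66 and 1.48 in αENaC. In the controls CHS1 was at 1.77 and 1.64 in set 1, 0.94 in control 3, 1.22 in control 4 and 0.79 to 0.93 in controls 5 to 7. Like SLT2 it was high in both groups of set 1, and its difference of 0.49 ± 0.22 (adjusted p = 0.277) was 0.020 in set 1 and 0.54 in set 2. CHS2, which builds the primary septum, was at 0.16, 0.21 and −0.037 in αENaC. The controls were at 0.41 and 0.44 in set 1, 0.12 in control 3 and 0.26 to 0.35 in set 3. The groups overlapped through control 3 alone. The difference of CHS2 was −0.20 ± 0.087 (adjusted p = 0.266). With the set as a fixed block it was called lower at −0.22 ± 0.047 (adjusted p = 0.0224; 0.0224 to 0.998 over 23 alternatives), and on the deposited z scores it was 0.00030. CHS3, the source of most wall chitin, had a difference of 0.017 ± 0.096, made of −0.11 in set 1 and 0.41 in set 2.

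Of the wall remodelling enzymes, CRH1 had the smallest p of all 34 members. CRH1 and UTR2 encode transglycosidases that join chitin to glucan. CRH1 was at 2.76, 2.87 and 2.76 in αENaC. The controls were at 2.49 and 2.48 in set 1, 2.28 in control 3, 2.81 in control 4 and 2.38 to 2.50 in controls 5 to 7. All controls but control 4 lay below every αENaC array. The difference was 0.32 ± 0.10, or 1.25-fold (adjusted p = 0.147), and was similar within the sets, at 0.33 and 0.49. Without control 4 it passed, at 0.37 (adjusted p = 0.0344; 0.0344 to 0.998 over 23 alternatives), and it was −0.026 with median centring. UTR2 had a difference of 0.20 ± 0.17 and opposite signs in the sets (−0.22 and 0.23).

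GAS3, a member of the glucanosyltransferase family that lengthens glucan chains, had the most negative difference of the remodelling genes. Its level was 1.73, 1.76 and 1.61 in αENaC, against 2.01 and 1.99 in the set 1 controls, 1.89 in control 3 and 1.78 to 1.86 in set 3. No αENaC array reached the lowest control. The difference was −0.19 ± 0.072, or 0.877-fold (adjusted p = 0.201). The sets gave −0.25 and −0.29. With the set as a fixed block GAS3 was called lower at −0.26 ± 0.043 (adjusted p = 0.00939; 0.00851 to 0.998 over 23 alternatives), and on the deposited z scores it was 0.00091. The related genes GAS1 and GAS5 had differences of 0.0049 ± 0.10 and 0.0079 ± 0.072. BGL2, a major glucanase of the wall, had one of 0.020 ± 0.066, with all 10 arrays between 3.38 and 3.59.

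**Figure D3:**
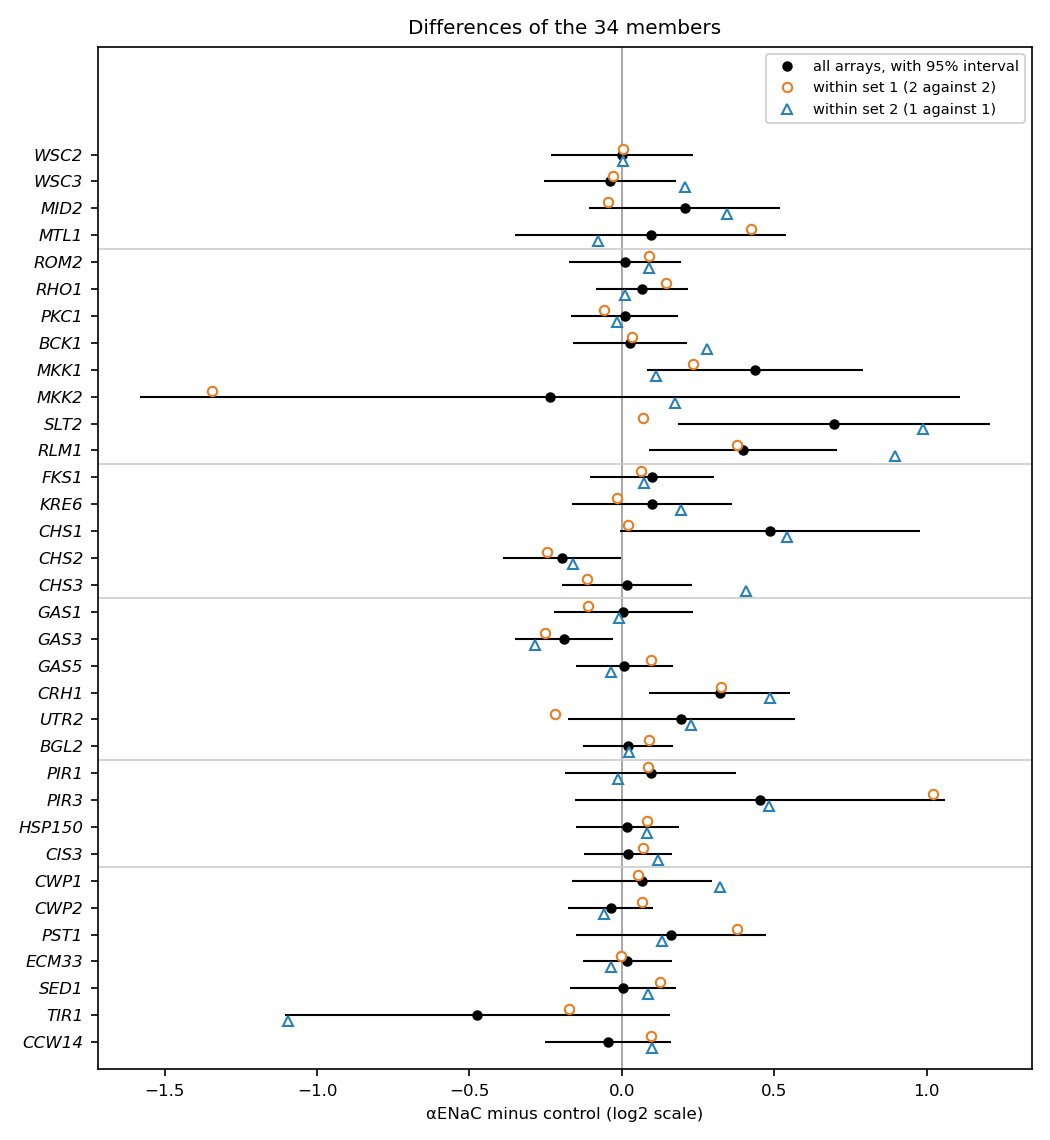
Difference of each member, αENaC minus control (log2 scale). Black points are the fit over all 10 arrays with its 95% interval, orange circles the difference within set 1 and blue triangles that within set 2. Intervals of 6 members exclude 0 before adjustment (MKK1, SLT2, RLM1, CHS2, GAS3 and CRH1), and SLT2, MID2, CHS3 and TIR1 have the set values that differ in the test between sets.

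Among the PIR genes, PIR3 stood out by its spread. It was at 2.19, 2.38 and 1.82 in αENaC. The controls of sets 1 and 2 were at 1.29, 1.24 and 1.34, control 4 was at 2.63 and controls 5 to 7 were at 1.59 to 1.87. PIR3 was therefore higher in αENaC within both sets, by 1.02 and 0.48, while control 4 passed every αENaC array, controls 5 and 6 lay below all 3 and control 7 lay just above αENaC 3. The difference over all arrays was 0.45 ± 0.27 (adjusted p = 0.405), and it was 0.84 with the set as a fixed block (adjusted p = 0.0566). PIR1, HSP150 and CIS3 had differences of 0.095 ± 0.13, 0.018 ± 0.076 and 0.020 ± 0.065. The 95% interval of CIS3 was 0.917- to 1.12-fold on the quantile-normalized scale, but over the 23 alternatives its difference ran from −0.45 to 0.087. With median centring 1 of the 4 PIR genes was positive and their median was −0.38. Without quantile normalization 1 was positive and the median was −0.16.

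Apart from TIR1, the GPI-linked wall protein genes had differences of 0.16 or less in size. CWP2, a major mannoprotein, was at 3.69, 3.70 and 3.63 in αENaC and between 3.61 and 3.78 with a median of 3.74 in the controls. Its difference was −0.037 ± 0.063. CWP1, its companion, had one of 0.065 ± 0.10, and ECM33, which is needed for normal wall structure, one of 0.018 ± 0.066. For SED1, a structural mannoprotein, it was 0.0040 ± 0.079, and for CCW14, an inner-layer mannoprotein, −0.045 ± 0.094. PST1, a relative of ECM33 that Slt2 signalling induces, had a difference of 0.16 ± 0.14, made of 0.38 in set 1 and 0.13 in set 2. With median centring these 6 were all negative, from −0.12 for PST1 to −0.56 for CWP2. TIR1, a mannoprotein gene of cold and low oxygen, had the most negative difference of the 34 on the quantile-normalized scale. TIR1 was at −0.31, −0.41 and 0.21 in αENaC. The controls were at −0.19 and −0.18 in set 1, 1.31 in control 3 and 0.27 to 0.38 in set 3. Both groups were low in set 1, and the difference was −0.47 ± 0.28 (adjusted p = 0.403). In set 1 it was −0.17 and in set 2 −1.09.

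Whether the difference was the same in set 1 (2 against 2 arrays) and set 2 (1 against 1) was tested with limma's interaction contrast. For 4 of the 34 members it was not, against 17.4% of all probe sets. The set 1 difference minus the set 2 difference was −0.92 ± 0.18 for SLT2 (adjusted p = 0.0194), −0.39 ± 0.10 for MID2 (adjusted p = 0.0409), −0.52 ± 0.081 for CHS3 (adjusted p = 0.0107) and 0.92 ± 0.099 for TIR1 (adjusted p = 0.00388). Control 3 was the lowest of the controls in MID2 and CHS3 and the highest in TIR1, and in SLT2 it lay with set 3, well below the set 1 controls. The set 2 value rests on a single pair of arrays, taken to vary like the others. The spread behind these SEs comes from arrays of the same group within sets 1 and 3, as set 2 adds none. The number of members called was 2 without αENaC 1, αENaC 2 or control 2 and 11 without control 4. With an array left out the share over all probe sets was not counted, so these numbers cannot be set against a background. Control 4 belongs to set 3, so leaving it out changed the spread and the normalization, not the arrays compared. Of the 34 members, 24 had the same sign in both sets, against 2852 of all 5498 probe sets (51.9%).

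Control 4 differed from the other arrays of set 3. It lay above each of controls 5 to 7 in 27 of the 34 members, where this held for 39.8% of all probe sets, and below each of them in 4, where this held for 41.6%. This was not particular to the members. Of 61 other wall genes, described below, control 4 lay above them in 43 and below in 10. It lay above them in all 25 general stress genes. In PIR3 the gap to the mean of controls 5 to 7 was 0.88, in PST1 0.54, in MTL1 0.43, in CRH1 0.39 and in CHS1 0.38. UTR2 went the other way, at −0.38. These are values of 1 array, with no test.

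**Figure D4:**
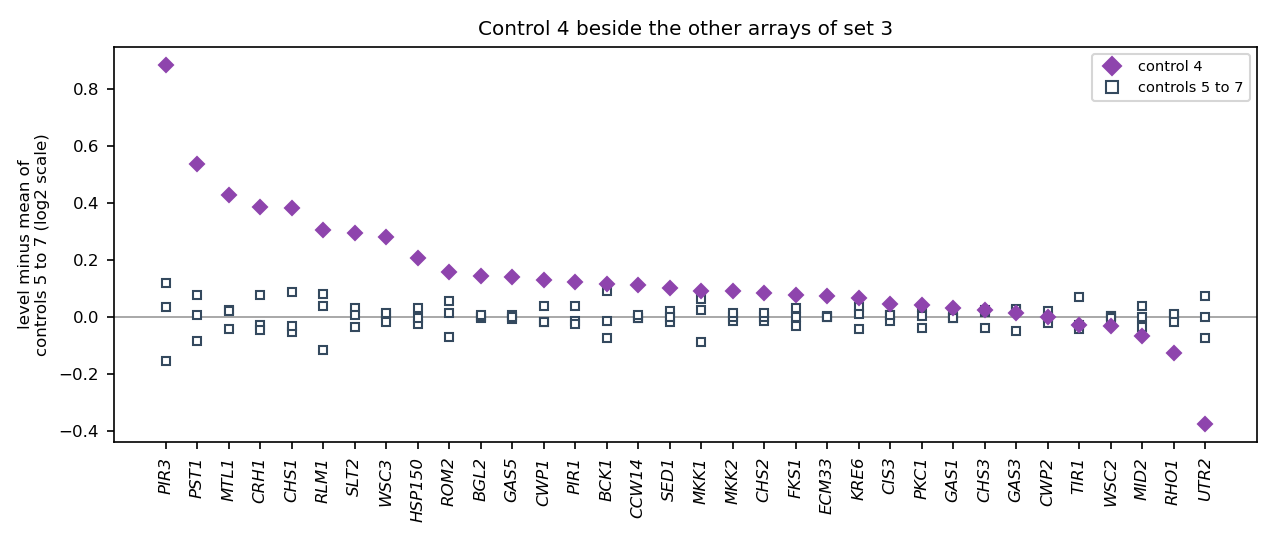
Level of each member on control 4 (purple diamonds) and on controls 5 to 7 (open squares), minus the mean of controls 5 to 7 (log2 scale), ordered by control 4. PIR3, PST1 and MTL1 lie 0.43 to 0.88 above it, and UTR2 lies 0.38 below.

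General stress genes, which answer to Msn2 and Msn4, also varied between arrays. Over 25 such genes the median deviation from the control mean was 0.40, 0.44 and −0.011 on αENaC 1 to 3. It was −0.90 and −0.75 on controls 1 and 2, 0.44 on control 3, 0.58 on control 4 and 0.024 to 0.20 on controls 5 to 7. Their median difference was 1.22 within set 1 and −0.44 within set 2, and none of the 25 was called, against 1.73% of all probe sets (3 at an unadjusted p under 0.05, against 18.2%). For the 34 wall members the corresponding medians were 0.064 and 0.094. PIR3, like the median of the stress genes, was highest on control 4 and lower in the set 1 controls than in αENaC, but in set 2 its difference had the opposite sign to theirs. The part of stress in the members' values was not tested.

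A wider list of 63 wall and wall integrity genes beside the 34 had 61 measured. Of these, 2 rose and none fell, against 1.36% rising and 0.364% falling among all probe sets. At an unadjusted p under 0.05, 12 were higher and 4 lower. Of all 5498 probe sets, 563 were higher and 435 lower at that mark, 18.2% in either direction. The median difference of the 61 was 0.052. PRM5, a membrane protein gene that wall integrity signalling induces, was at 1.96, 1.82 and 1.81 in αENaC. In the controls PRM5 was between 0.43 and 1.23 with a median of 0.71. The set 1 controls were at 1.23 and 1.21, and those of set 3 at 0.43 to 0.95. The groups were well apart, and PRM5 rose by 1.02 ± 0.17, or 2.02-fold (adjusted p = 0.0165). In sets 1 and 2 the difference was 0.67 and 1.11, and with the set as a fixed block it was 0.81. With the replicate number as a block, a fit of 3 against 3 arrays, its adjusted p was 0.146, and it was 0.139 without αENaC 1 and 0.106 without αENaC 2. Without set 3 it was 0.127, and with near-identical arrays averaged 0.641.

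EXG2, for a glucanase of the wall, rose by 0.48 ± 0.092, or 1.40-fold (adjusted p = 0.0293; 0.187 with the replicate block). Its level was 0.41, 0.43 and 0.30 in αENaC, all above the highest control at 0.099. The call of EXG2 was lost under the other scalings tried: the adjusted p was 0.0749 for median centring, 0.0935 when quantile normalization was left out and 0.0653 for the deposited z scores. It was also lost without αENaC 1, αENaC 2, control 5, control 6 or control 7, with adjusted p from 0.0667 to 0.200. LRG1, which switches Rho1 off, had a difference of −0.46 ± 0.10 (adjusted p = 0.0581), and PTP2, a phosphatase that acts on Slt2, one of 0.50 ± 0.12 (adjusted p = 0.0730).

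A pair of further genes was chosen after their values were seen. GSC2, the alternative catalytic subunit of glucan synthase that is induced under wall stress, was at 2.14, 2.22 and 1.91 in αENaC. It was at 1.16, 1.05 and 1.08 on controls 1 to 3, 2.75 on control 4 and 2.09 to 2.22 on controls 5 to 7. In sets 1 and 2 αENaC was higher, by 1.08 and 0.82, but the 4 controls of set 3 were in or above the αENaC range, and the overall difference was 0.31 ± 0.36 (adjusted p = 0.683). The mannosyltransferase gene KTR2 had a difference of 0.68 ± 0.17 (adjusted p = 0.0790), and 0.75 and 1.05 in the sets. With the set as a fixed block, 9 of the 61 were called higher and 6 lower, GSC2 (adjusted p = 0.00973) and KTR2 (adjusted p = 0.0107) among the former, where 7.38% and 6.86% of all probe sets were.

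**Figure D5:**
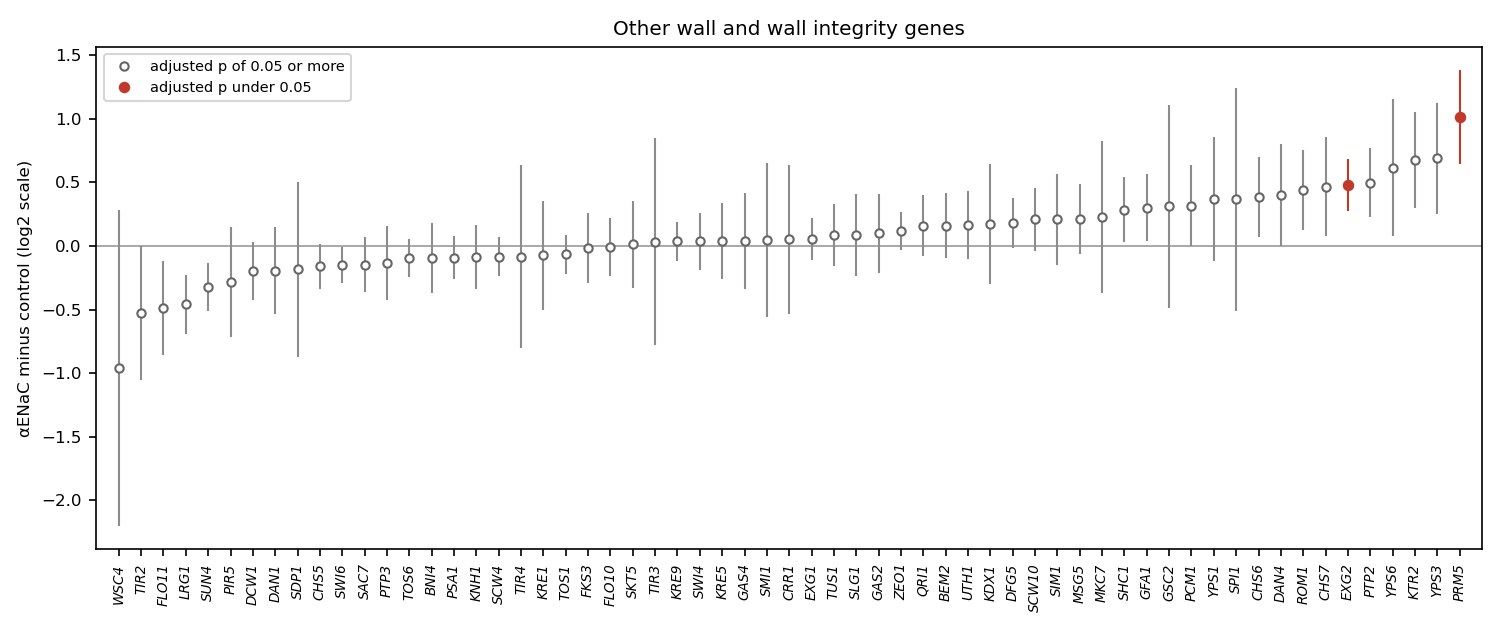
Difference of each of 61 other wall and wall integrity genes, αENaC minus control (log2 scale), with 95% intervals, ordered by size. Filled red points are the 2 genes with an adjusted p under 0.05, PRM5 at 1.02 and EXG2 at 0.48.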

How the data were processed

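The files of 10 arrays were used, 3 αENaC and 7 vector control. Their deposited unit is a score. Judged from the values it is a z transform within each array (mean 0, SD 1 over 10715 probe sets), apparently of linear intensities; the authors' probe summary and background steps are not given in the sources used here. To undo it, the lowest score of an array was subtracted and the result divided by that score's size, which puts the lowest value at 0 and leaves an additive background unknown. A pseudocount of 0.03 was added, log2 taken and quantile normalization applied; differences on this scale understate the change of low genes. Probe sets were named by the platform annotation, with symbols brought up to date by gene identifier from the R64 RefSeq gene table. The background level is the 95th percentile of 1746 probe sets whose names lie outside the S. cerevisiae annotation.

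The test was limma's (version 3.58.1, R 4.3.3; lmFit, eBayes): αENaC against control, 2-sided, without covariates, on 8 residual degrees of freedom, with Benjamini-Hochberg adjustment across 5498 probe sets and a threshold of 0.05. A fit with 1 mean for every combination of set and group (5 residual degrees of freedom) gave the values per set and the interaction. Both were run on simulated data in which arrays varied independently and no difference between sets was planted. Likeness of arrays within a set was not covered by it. The members and gene lists were chosen with earlier results of these data known. Every-array values are given for the 10 members with the smallest p, the members called with the set as a block, and those of highest and lowest mean level; among other wall genes the 4 with the smallest p are named. The design text states at least 3 biological replicates per strain. The sets are known from the titles alone, with no label saying what they are.

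Both groups have replicates numbered 1 to 3. As a check of pairing, the deviation of each array from its group mean was correlated with that of the array of the same number. The results were 0.41 for number 1, 0.22 for number 2 and 0.17 for number 3. All exceed 0.1, which was taken as paired, although arrays of another number reached 0.38, 0.27 and 0.40. For numbers 2 and 3 that is higher than the same-number value, so the check cannot show pairing by number. The main test was unpaired, and the replicate block is given beside it. The alternatives changed scaling, pseudocount, dim-probe filter, variance model, blocks, probe sets tested and arrays included. The planned description of promoter and protein sequences was not made here. A further companion gene list is not reported here.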

Additional observations from a re-analysis of the deposited data

Results flagged for a closer look

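Among the 7 controls, 8 of the 34 members had an array set apart from the other 6 by the gap test, which marks about 5% of groups by chance and marked 7.08% of all 5498 probe sets. Members share arrays, so the 8 are not independent. MKK2 was at 1.87 on control 2, against a median of −1.21 on the other controls. On control 4, GAS5 was at 2.69 (2.54 on the others), CRH1 at 2.81 (2.44), BGL2 at 3.59 (3.44) and PST1 at 2.70 (2.08). On control 3, CHS3 was at 0.98 (1.36), CWP1 at 2.32 (2.71) and TIR1 at 1.31 (0.27). Control 4 was the array concerned for 4 of the 34 members (11.8%) and 2.95% of all probe sets.

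For 4 members the difference between αENaC and control was itself different in sets 1 and 2 by limma's interaction contrast, which called 17.4% of all probe sets. Set 1 minus set 2 was −0.39 for MID2, −0.92 for SLT2, −0.52 for CHS3 and 0.92 for TIR1. Each of these values rests on 1 pair of arrays in set 2.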

How the results depend on the processing

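Each of the 34 differences was computed under 23 alternatives, or 782 values. Of these, 653 kept their direction and their side of the threshold, 8 gained a call and 121 turned in sign. Of the 121, 110 belonged to members whose own difference was within 1 SE of 0. They were counted and not listed in full. The other 11 were FKS1 at −0.34, CRH1 at −0.026, UTR2 at −0.095 and PST1 at −0.12 with median centring, FKS1 at −0.12 without quantile normalization, CHS2 at 0.00030 and GAS3 at 0.00091 on the z scores, and UTR2 at −0.071 with the set as a fixed block, −0.035 as a random block, −0.071 with the replicate block and −0.062 without set 3. The 110 were not all small. Among them, on the scale of each alternative, SED1 reached −0.68, BGL2 −0.51, HSP150 −0.46, CIS3 −0.45, and GAS1 and ECM33 −0.43. In the other direction MKK2 reached 0.20 and WSC2 0.17. No member was called as reported. With the set as a fixed block 3 were (RLM1, CHS2 and GAS3), as a random block 4 (with CRH1 added), with the replicate block 0, and 0 to 1 with each array left out in turn, CRH1 without control 4. The members' median was −0.17 with median centring and ran from −0.0028 to 0.081 with each array left out.

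Calls among the other 61 wall genes were 2 as reported, 1 with median centring, 1 without quantile normalization, 15 and 11 with the set as a fixed and random block, 0 with the replicate block, 1 without set 3 (neither PRM5 nor EXG2), 0 with near-identical arrays averaged and 0 to 5 with each array left out, where 0 came without αENaC 1 or αENaC 2 and 5 without control 3 or control 4. PRM5 passed under 18 of its 23 alternatives (adjusted p from 0.00408 to 0.641) and EXG2 under 12 (0.0131 to 0.998). Over all probe sets there were 95 calls (75 higher, 20 lower). There were 42 (33 and 9) with median centring, 46 (45 and 1) without quantile normalization, 783 (406 and 377) and 617 (358 and 259) with the set as a fixed and random block, 0 with the replicate block (1127 at an unadjusted p under 0.05), 20 (18 and 2) without set 3, 0 with near-identical arrays averaged and 12 to 240 with each array left out. The median of all probe sets was 0.018 as reported and 0.16 without quantile normalization. The members whose difference differed between sets were 4, and 2 to 11 with arrays of sets 1 and 3 left out, where the share over all probe sets was not counted. Arrays of set 3 enter the test between sets only through its spread and the normalization. The alternatives for single other wall genes and for the stress list, and the arrays left out of the test between sets, were chosen after seeing the data. The blocks have few degrees of freedom (6 for the set, 2 for the replicate), most arrays of a set are near-identical, and set 3 holds controls alone and adds nothing to the fixed-block difference.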

Other observations

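The controls alone differed between sets in a pair of other wall genes, chosen after their values were seen. WSC4, a further member of the WSC family, was at −1.71 and −1.30 on controls 1 and 2, 0.15 on control 3 and 0.58 to 0.996 on controls 4 to 7, with −1.14, −0.85 and −0.89 on the αENaC arrays. Its difference was 0.51 within set 1 and −1.04 within set 2. SPI1, a GPI-linked wall protein gene, was at 1.14 and 1.41 on controls 1 and 2, 2.71 on control 3 and 2.52 to 3.03 on controls 4 to 7, with 2.77, 2.99 and 2.21 on the αENaC arrays. Its difference was 1.60 within set 1 and −0.50 within set 2.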
